A study of Mus musculus with 9 samples.

Results

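The genes described here write, copy and remove cytosine methylation: the DNA methyltransferases Dnmt1, Dnmt3a and Dnmt3b, the methylation-copying cofactor Uhrf1, and the dioxygenases Tet1, Tet2 and Tet3. They were taken by gene symbol from a deposited table of 55357 mouse genes, and all 7 were found, each in 1 row (in the order above ENSMUSG00000004099, ENSMUSG00000020661, ENSMUSG00000027478, ENSMUSG00000001228, ENSMUSG00000047146, ENSMUSG00000040943 and ENSMUSG00000034832). The values are TPM, a share of each library's transcripts that is scaled by transcript length and can be compared between genes. They come from 5 poly(A) RNA libraries of SV40-MES-13, an SV40-transformed mouse kidney line that is labelled as mesangial. The groups were cells with the empty vector (EV, n = 2), cells with the Drosha shRNA sh5 (n = 1) and cells with the Drosha shRNA sh7 (n = 2), with shRNAs delivered by lentivirus in the pLL3.7 vector. The EV libraries are labelled wild type. The titles of the shRNA libraries say knockout, whereas the protocols describe knockdown. No label states whether replicates are separate cultures, and p-values then measure only the spread between these libraries, which may be technical. In bulk RNA, fewer cells that express a gene and less RNA per cell cannot be told apart. Another 4 samples of the series, small RNA libraries, are not analysed here.

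Methylation of cytosine in CpG dinucleotides is set by Dnmt3a and Dnmt3b and is copied after replication by Dnmt1, which Uhrf1 brings to hemimethylated DNA at the replication fork. The Tet enzymes oxidise methylcytosine, after which the mark is lost by dilution or by base excision. Drosha, the knocked-down gene, cuts primary microRNA transcripts in the nucleus, and members of the miR-29 family are known to repress DNMT3A and DNMT3B in human cells.

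Drosha, the target of both shRNAs, was lowest with sh7 and intermediate with sh5. It was at 60.0 and 56.4 TPM with the empty vector, 36.0 TPM with sh5 and 8.39 and 14.9 TPM with sh7. The log2 difference for sh7 was -2.27 (SE 0.266, limma adjusted p = 0.109), above the threshold of 0.05. Dgcr8, whose mRNA Drosha itself cleaves, was at 26.7 and 26.3 TPM with the empty vector, 24.3 TPM with sh5 and 171 and 161 TPM with sh7, and it was called for sh7 against EV (log2 difference 2.60, SE 0.0887, limma adjusted p = 0.0153). That call was lost without the filter on low values (limma adjusted p = 0.128), with the replicate block and without EV replicate 1 or either sh7 library, where no gene was called. The 2 shRNA sequences that separate the groups, as given in the protocols, are these.
sh5: cctggaatatgtccacacttt
sh7: gtgtgcccattgaaataaa

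EV replicate 1 stood apart in interferon response genes. Their summed level over 10 genes was 214 TPM in that library, against 2286 TPM in EV replicate 2, 1700 TPM for the sh5 library and 3870 and 3638 TPM for the sh7 libraries, and EV replicate 1 was the lowest library for all 10. The mesangial label was not borne out by its markers. Of the mesangial and pericyte markers 8 of 10 averaged under 1 TPM, among them Pdgfrb at 0.0899 to 0.251 TPM and Itga8 at no more than 0.012 TPM, while vimentin (Vim), which many cultured cells express, was at 498 to 848 TPM. All 7 markers of kidney epithelium were above that level, among them Cdh16 at 126 to 154 TPM and Pax8 at 51.7 to 89.0 TPM. All 5 endothelial, 4 of 5 podocyte and 4 of 5 leukocyte markers averaged under 1 TPM.

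The order of mean levels was Uhrf1, Dnmt1, Tet3, Dnmt3a, Dnmt3b, Tet2 and Tet1. Uhrf1 (155 to 167 TPM) and Dnmt1 (74.5 to 109 TPM) did not overlap, and the mean of Dnmt1 was 13.5 times that of Tet3, the next gene. Below that gap the ranges of neighbours overlapped for Tet3 with Dnmt3a, for Dnmt3a with Dnmt3b and for Dnmt3b with Tet2. The order within a library was nevertheless the same in 5 of 5 libraries for the first pair and for the second, and in 4 of 5 for Dnmt3b over Tet2. In every library Uhrf1 lay above at least 94.5% and Dnmt1 above at least 88.4% of the genes that were above 0, whereas Tet1 lay above 20.3% to 40.5% of them. Tet3 lay above 51.6% to 57.9% of those genes and Dnmt3a above 48.6% to 53.9%. Dnmt3b lay above 46.2% to 52.4% and Tet2 above 42.1% to 50.2%. The maintenance pair was thus abundant, and the de novo enzymes and the Tet enzymes were far below it in all 3 groups.

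**Figure D1:**
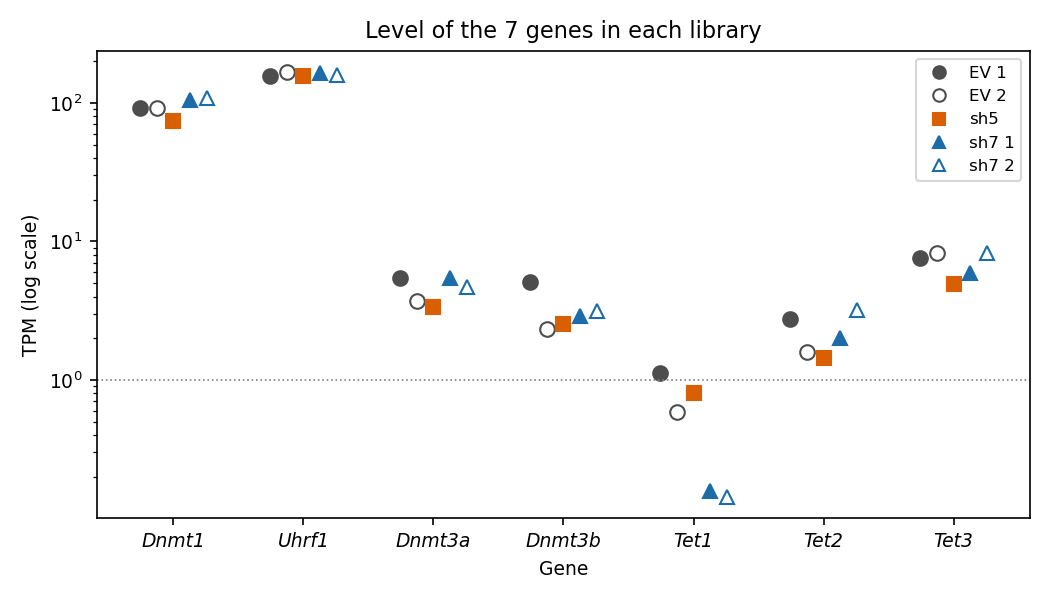
TPM on a log scale for the 7 genes, with 1 point per library: EV as circles, sh5 as squares and sh7 as triangles, filled for replicate 1 and open for replicate 2. The dotted line marks 1 TPM, the mean a gene needed to be tested. Uhrf1 and Dnmt1 sit above all other genes in every library, and the sh7 points of Tet1, at 0.159 and 0.144 TPM, lie below its 3 other points.

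Windows at listed starts of the 2 abundant genes are shown because, of those searched for the 7 genes, theirs alone held an E2F-type motif. This is the kind of site bound by E2F factors at S phase genes. RefSeq windows of 300 bases, from 250 before a transcript start to 50 after it (build GRCm38.p6), were searched on both strands for TTTCCCGC, TTTCGCGC, TTTGCCGC and TTTGGCGC. Of 12 windows for the 7 genes, 2 held a match, against 2.26% of all 32851 windows. Both are printed on the strand of the gene, with the matches in capitals. The Dnmt1 window is chr9:20952574-20952873 on the minus strand, 1 of 3 listed starts, with matches beginning 219 bases before and 34 bases after that start. On the minus strand higher coordinates come first, so this whole window lies downstream of both other listed starts. The nearer of these has the window chr9:20952930-20953229, and neither of their windows held a match. For transcripts from those starts, both printed matches are thus inside the gene. The Uhrf1 window is chr17:56304063-56304362 on the plus strand, 1 of 2 listed starts, with a match beginning 185 bases before that start. It too lies downstream of the other listed start of its gene, whose window held no match.
Dnmt1: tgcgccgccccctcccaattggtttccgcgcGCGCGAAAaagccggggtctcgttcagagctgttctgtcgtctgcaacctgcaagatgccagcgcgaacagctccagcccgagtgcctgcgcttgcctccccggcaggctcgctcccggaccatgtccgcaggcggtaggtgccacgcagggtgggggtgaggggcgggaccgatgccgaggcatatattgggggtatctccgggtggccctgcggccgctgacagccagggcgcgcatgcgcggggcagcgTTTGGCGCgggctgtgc
Uhrf1: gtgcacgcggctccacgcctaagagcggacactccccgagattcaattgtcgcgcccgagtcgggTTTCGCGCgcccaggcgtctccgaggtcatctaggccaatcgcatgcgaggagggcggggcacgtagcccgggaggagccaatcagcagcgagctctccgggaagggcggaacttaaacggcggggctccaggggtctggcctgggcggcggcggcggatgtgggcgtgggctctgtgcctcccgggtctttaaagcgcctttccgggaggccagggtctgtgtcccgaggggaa
Each of these windows held 33 CpG dinucleotides, more than 91.4% of all windows, whose median was 7. The windows of Tet2 (57 CpG) and the most CpG-rich one of Dnmt3a (47 CpG) held more, and that of Tet1 held 17. Every searched word itself holds a CpG, and how often windows of like CpG content hold a match was not tested. The TPM values are per gene and do not tell which start was used.

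Uhrf1, which reads hemimethylated CpG and recruits Dnmt1, was at 156 and 167 TPM with the empty vector, 155 TPM with sh5 and 164 and 160 TPM with sh7. The groups overlapped for sh7, and sh5 lay just under the lower EV library. The mean was 161 ± 8.17 TPM in EV and 162 ± 3.03 TPM in sh7 (SD, n = 2 each). The log2 difference of TPM + 1 was 0.0076 for sh7 (SE 0.0806, 95% interval -0.20 to 0.22) and -0.054 for sh5 (SE 0.0987, 95% interval -0.31 to 0.20), with limma adjusted p = 0.970 and 0.861. The interval for sh7 bounds a change of this gene more tightly than for any de novo or Tet gene tested.

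Dnmt1, the maintenance enzyme, was at 91.8 and 91.8 TPM with the empty vector, 74.5 TPM with sh5 and 105 and 109 TPM with sh7. Both sh7 libraries lay above both EV libraries, as 35.8% of all tested genes did, and sh5 lay below both. The mean was 91.8 ± 0.0107 TPM in EV and 107 ± 2.41 TPM in sh7 (SD, n = 2 each), a ratio of 1.16, and sh5 was at 0.811 of the EV mean. The log2 difference was 0.22 for sh7 against EV (SE 0.0785, limma adjusted p = 0.334), -0.30 for sh5 against EV (SE 0.0961, limma adjusted p = 0.501) and 0.52 for sh7 against sh5 (SE 0.0961, 95% interval 0.27 to 0.77, limma adjusted p = 0.128). None passed the threshold of 0.05 over all genes, while the unadjusted limma p were 0.0409, 0.0277 and 0.00332.

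These differences have to be read against all genes. Under the scaling of the deposited values the median log2 difference of the 12728 tested genes was 0.089 for sh7 against EV, -0.054 for sh5 against EV and 0.16 for sh7 against sh5, and median-of-ratios scaling moved the last of these by -0.146 and quantile normalization by -0.19. Relative to those medians Dnmt1 was 0.13 higher in sh7, 0.24 lower in sh5 (-0.24) and 0.36 apart between the constructs. Genes with both sh7 libraries above and the sh5 library below both EV libraries made up 14.0% of all tested genes. Under median-of-ratios scaling the Dnmt1 differences were 0.13, -0.23 and 0.36, with limma adjusted p = 0.508, 0.555 and 0.188, and neither difference from EV then had an unadjusted p under 0.05. Dnmt1 kept its place above both EV libraries in sh7 and below both in sh5 under that scaling and under quantile normalization.

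**Figure D2:**
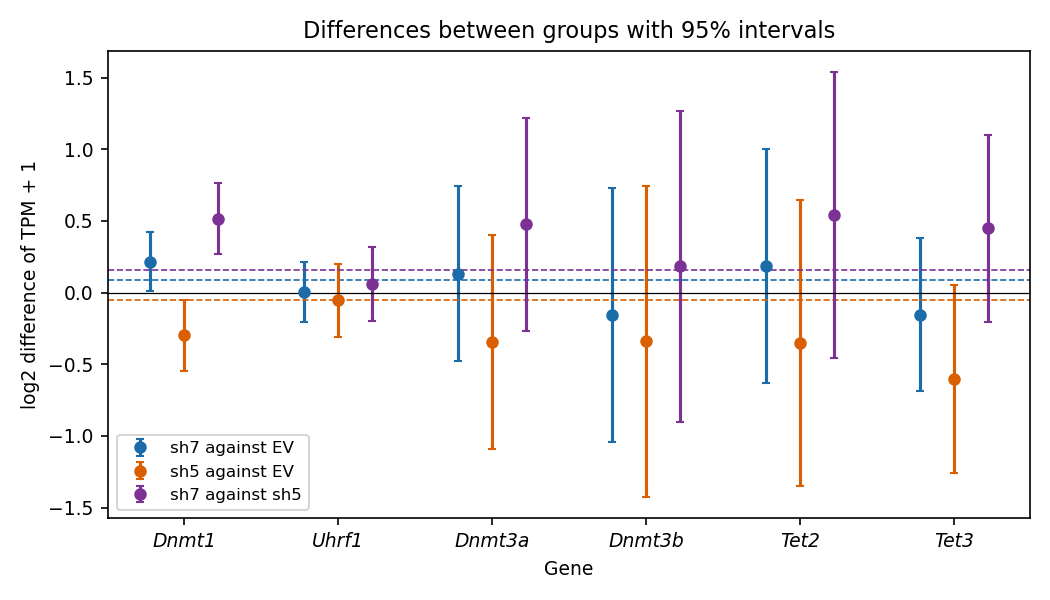
Log2 difference of TPM + 1 for the 6 tested genes in each comparison, with 95% intervals from limma. Dashed lines in the same colours give the median of all 12728 tested genes. The 3 intervals of Dnmt1 exclude 0, those against EV narrowly. They are 0.013 to 0.42 around 0.22 for sh7 against EV and -0.55 to -0.049 around -0.30 for sh5 against EV. For sh7 against sh5 the interval is 0.27 to 0.77 around 0.52. None of these differences passed the adjusted threshold, and the intervals of the other genes include 0.

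Dnmt3a, a de novo methyltransferase, was at 5.48 and 3.72 TPM with the empty vector, 3.36 TPM with sh5 and 5.45 and 4.69 TPM with sh7. Dnmt3b, the other, was at 5.06 and 2.33 TPM with the empty vector, 2.55 TPM with sh5 and 2.89 and 3.17 TPM with sh7. For both genes EV replicate 1 was the highest library, as it was for 23.1% of all tested genes. The sh7 values of both lay between the EV values, so that the groups overlapped. The log2 difference for sh7 was 0.13 for Dnmt3a (SE 0.235, 95% interval -0.48 to 0.74) and -0.16 for Dnmt3b (SE 0.341, 95% interval -1.04 to 0.73), with limma adjusted p = 0.815 and 0.849. For sh5 it was -0.34 for either gene (SE 0.287 and 0.417, limma adjusted p = 0.699 and 0.790). The value of Dnmt3a was -0.11 without EV replicate 1 and -0.57 without EV replicate 2, and that of Dnmt3b was 0.093 and -0.77. EV replicate 1 held 2.18 times the Dnmt3b of EV replicate 2, where 6.73% of tested genes differed by more than 2-fold between these libraries. Without EV replicate 1 the Dnmt3b difference for sh7 turned from -0.16 to 0.28, and without EV replicate 2 it was -0.59, so its sign rested on which control was used. The ratio of Dnmt3a to Dnmt3b was 1.08 and 1.60 in EV, 1.32 in sh5 and 1.89 and 1.48 in sh7.

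The miR-29 sequences are shown because 2 of their hairpin loci were detected in sh7 and because of their known link to the de novo enzymes in human cells. The seed, bases 2 to 8, is in capitals and is AGCACCA in each.
miR-29a-3p: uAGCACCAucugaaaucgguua
miR-29b-3p: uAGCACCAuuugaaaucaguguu
miR-29c-3p: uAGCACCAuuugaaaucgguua
The locus Mir29a was at 11.3 and 21.1 TPM with sh7 and was listed at 0 elsewhere. Mir29b-1 was at 3.83 and 5.40 TPM with sh7 and likewise listed at 0 in the 3 other libraries. Both passed the filter on low values only through sh7. Mir29b-2 and Mir29c were listed at 0 in all 5 libraries. A level at a hairpin locus in poly(A) RNA is not a level of the mature microRNA. These loci were added for their known targets, with their values already seen. The loci Mir148a, Mir148b and Mir152 were also looked up and were listed at 0 in all 5 libraries. Dnmt3a and Dnmt3b, with the values above, overlapped between sh7 and EV.

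Tet1 was the lowest of the 7 genes and the one with the largest ratio between groups. It was at 1.12 and 0.586 TPM with the empty vector, 0.806 TPM with sh5 and 0.159 and 0.144 TPM with sh7. Both sh7 libraries lay below both EV libraries and below sh5, and the sh7 mean was 0.178 of the EV mean, 0.151 ± 0.0108 TPM against 0.851 ± 0.375 TPM (SD, n = 2 each). With an average of 0.562 TPM it was below the filter of 1 TPM and was not tested in the main analysis. Without a filter its log2 difference of TPM + 1 was -0.67 (SE 0.181, limma adjusted p = 0.414, unadjusted p = 0.0344), and the same difference was -1.03 with a pseudocount of 0.5 and -1.86 with a pseudocount of 0.1. Of the 27297 genes above 0 in some library, 9.81% lay below both EV libraries in both sh7 libraries, and 2.98% had an unadjusted limma p under 0.05 on the lower side. That set includes genes at 0 in an EV library, which cannot lie below it. Of the 12728 tested genes, which leave out Tet1, 14.3% lay below both EV libraries. This share was 23.5% under median-of-ratios scaling and 25.3% under quantile normalization. TPM keep no read depth, so how many reads stand behind values this low is unknown.

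Tet2 and Tet3, the other family members, overlapped between sh7 and EV. Tet2 was at 2.73 and 1.60 TPM with the empty vector, 1.44 TPM with sh5 and 2.00 and 3.19 TPM with sh7. Tet3 was at 7.63 and 8.26 TPM with the empty vector, 4.88 TPM with sh5 and 5.94 and 8.30 TPM with sh7. For both genes the sh5 library was the lowest of the 5, as it was for 5 of the 6 tested members and for 36.3% of all tested genes. The log2 difference for sh7 was 0.19 for Tet2 (SE 0.314, limma adjusted p = 0.803) and -0.15 for Tet3 (SE 0.205, limma adjusted p = 0.748). For sh5 it was -0.35 for Tet2 (SE 0.385, limma adjusted p = 0.763) and -0.60 for Tet3 (SE 0.252, 95% interval -1.26 to 0.05, limma adjusted p = 0.537). The value of Tet2 for sh5 was -0.092 without EV replicate 1 and -0.61 without EV replicate 2. Whether Tet1 differed from its paralogs in its response was not tested.

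As a share of summed Tet mRNA, Tet1 made up 9.74% and 5.61% in EV, 11.3% in sh5 and 1.96% and 1.24% in sh7. Tet3 made up the most in every library, 66.5% to 79.1%. The sum of the 3 Tet genes was 11.5 and 10.4 TPM with the empty vector, 7.13 TPM with sh5 and 8.11 and 11.6 TPM with sh7. The first sh7 library thus lay below both EV sums and the other just above them. The sum of the 3 methyltransferases, of which Dnmt1 made up 89.7% to 93.8%, was 8.92 and 9.37 times the Tet sum in EV, 11.3 times in sh5 and 14.0 and 10.0 times in sh7.

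**Figure D3:**
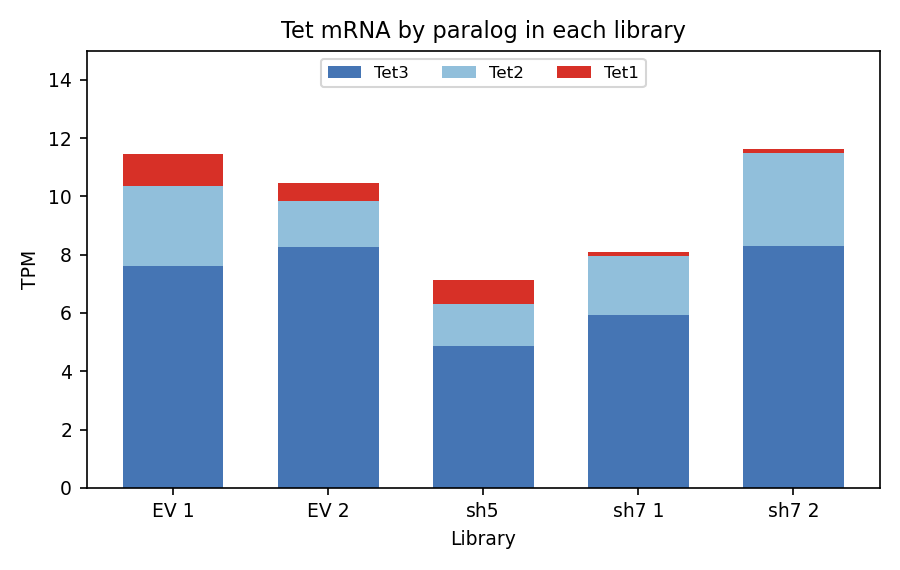
Stacked TPM of Tet3, Tet2 and Tet1 in each library, from 0. Tet3 is the largest part of every bar. The Tet1 part is 1.96% and 1.24% of the bar in the sh7 libraries, while the bar heights of sh7, 8.11 and 11.6 TPM, lie below and above the EV heights.

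Counted over the group, 6 of the 7 genes were tested and 0 passed the adjusted threshold in any comparison, where limma called 0.0157% of all tested genes for sh7 against EV, 0% for sh5 against EV and 0.0157% for sh7 against sh5. At an unadjusted p under 0.05 Dnmt1 alone was counted, higher in sh7 against EV (10.3% of all tested genes), lower in sh5 against EV (7.96%, with 1.59% higher) and higher in sh7 against sh5 (17.1%, with 3.56% lower). The split of all genes at that level followed the scaling: for sh7 against EV it was 10.3% higher and 4.15% lower, and 5.94% and 7.32% under median-of-ratios scaling. In sh5, 5 of 6 genes lay below both EV libraries, where 43.7% of all tested genes did. Under median-of-ratios scaling this was 4 of 6 against 35.1%, and under quantile normalization 4 of 6 against 33.0%. On the upper side there was no member, against 26.9% of all tested genes, 36.2% and 36.8% under these scalings. All 6 lay higher in both sh7 libraries than in sh5, where 58.5% of all tested genes did. Under median-of-ratios scaling this was 5 of 6 against 41.7%, with Uhrf1 on the lower side (39.6% of all tested genes), and under quantile normalization 4 of 6 against 35.9%, with Dnmt3b lower. Under quantile normalization Tet3 lay below both EV libraries in sh7, as 25.3% of all tested genes did.

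The partners of these enzymes were followed in lists. Of 11 readers of methylated CpG, all tested, 3 had an unadjusted limma p under 0.05 on the higher side for sh7 against EV and 0 on the lower side (10.3% and 4.15% of all tested genes), and the list's median log2 difference was 0.23, where that of all genes was 0.089. Under median-of-ratios scaling 2 were counted higher and 1 lower, and without EV replicate 1 it was 2 higher. Uhrf2, the paralog of Uhrf1, was at 41.5 and 41.1 TPM with the empty vector, 41.3 TPM with sh5 and 58.7 and 56.3 TPM with sh7. Both sh7 values of Uhrf2 were thus above all 3 other libraries, with a log2 difference of 0.47 (SE 0.0890, limma adjusted p = 0.227), while Uhrf1 differed by 0.0076. In sh7, 35.8% of all tested genes lay above both EV libraries. The zinc-finger reader Zbtb4 was at 5.49 and 5.52 TPM with the empty vector, 3.94 TPM with sh5 and 9.76 and 11.8 TPM with sh7 (log2 difference 0.85 for sh7, SE 0.172, limma adjusted p = 0.234). Mbd1, a methyl-CpG binding repressor, was at 27.2 and 26.2 TPM with the empty vector, 28.3 TPM with sh5 and 38.8 and 31.9 TPM with sh7. In sh5 the smallest p of this list belonged to Mbd6 (10.9 TPM in sh5, 14.7 and 14.6 TPM in EV), and 0 of 11 were under 0.05.

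Among 23 cofactors and recruiters of the methyltransferases 21 were tested. For sh5 against EV 5 of them had an unadjusted limma p under 0.05, all lower (7.96% of all tested genes were lower and 1.59% higher), with a median of -0.24 where that of all genes was -0.054. It was 4 under median-of-ratios scaling, 3 under quantile normalization and 4 without EV replicate 1. Ehmt1, a histone H3 lysine methyltransferase, was at 37.3 and 32.8 TPM with the empty vector, 22.2 TPM with sh5 and 34.0 and 34.6 TPM with sh7. Nsd1, whose histone mark guides de novo methylation, was at 21.3 and 22.8 TPM with the empty vector, 15.4 TPM with sh5 and 19.9 and 19.5 TPM with sh7. For both genes the sh5 library was the lowest of the 5, with log2 differences of -0.63 and -0.49 (limma adjusted p = 0.461 and 0.485). The other 3 were the remodeller Hells (122 TPM in sh5, 155 and 160 TPM in EV), the deubiquitinase Usp7, which binds Dnmt1 and Uhrf1 (62.8 TPM in sh5, 82.4 and 78.9 TPM in EV), and the histone methyltransferase Setd2 (14.3 TPM in sh5, 29.0 and 20.9 TPM in EV), named after their values were seen. For sh7 against EV 1 gene was counted higher, Zfp57, which protects methylation at imprinted loci (29.6 and 26.9 TPM with the empty vector, 22.7 TPM with sh5, 38.4 and 37.7 TPM with sh7), and 1 lower, the PCNA-binding factor Pclaf (312 and 252 TPM with the empty vector, 251 TPM with sh5, 221 and 218 TPM with sh7). Kdm2b, which binds unmethylated CpG, was at 39.5 and 31.3 TPM with the empty vector, 31.9 TPM with sh5 and 43.0 and 42.6 TPM with sh7 and was not counted. Without EV replicate 1 the sh7 count was 3 higher and 0 lower. Dnmt3l and Dppa3 were below the filter.

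Downstream of the Tet enzymes, 14 of 16 genes of active demethylation and base excision were tested, of which 2 were counted higher and 1 lower for sh7 against EV (10.3% and 4.15% of all tested genes). Under median-of-ratios scaling it was 2 higher and 3 lower, and under quantile normalization 1 higher and 2 lower. Apex1, the endonuclease that cuts abasic sites, was at 420 and 373 TPM with the empty vector, 400 TPM with sh5 and 266 and 248 TPM with sh7. The sh7 libraries did not overlap the others, with a log2 difference of -0.62 (SE 0.0941, limma adjusted p = 0.170). In sh7, 14.3% of all tested genes lay below both EV libraries. The glycosylase Neil3 was at 13.9 and 12.7 TPM with the empty vector, 9.07 TPM with sh5 and 20.1 and 23.7 TPM with sh7 (log2 difference 0.68 for sh7 and -0.50 for sh5, limma adjusted p = 0.245 and 0.514), so sh7 and sh5 lay on opposite sides of EV, as they did for Dnmt1. Smug1, which removes uracil and oxidised pyrimidines, was at 18.6 and 17.0 TPM with the empty vector, 17.2 TPM with sh5 and 23.7 and 23.8 TPM with sh7. The 2 genes counted for sh5, both lower, were Neil3 and the stress-induced gene Gadd45g, which is linked to demethylation and was at 18.2 TPM there (27.4 and 24.8 TPM in EV). Of all tested genes 7.96% were counted lower for sh5, and in this list it was 0 without EV replicate 1 and 0 under quantile normalization. Under median-of-ratios scaling the sh5 count of the list stayed at 2, both lower. Tdg, the glycosylase that excises the products of Tet oxidation, fell outside the naming rule and is given for its role. It was at 75.7 and 63.0 TPM with the empty vector, 60.6 TPM with sh5 and 68.0 and 68.8 TPM with sh7, with sh7 inside the EV range.

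Of 14 genes that supply or regulate the Tet reaction 12 were tested, with 2 counted higher and 1 lower for sh7 (10.3% and 4.15% of all tested genes). Both higher counts depended on the scaling: it was 0 higher and 2 lower under median-of-ratios scaling and 0 higher and 1 lower under quantile normalization. Idh3b, a subunit of the mitochondrial enzyme that makes the Tet cosubstrate, was at 189 and 186 TPM with the empty vector, 187 TPM with sh5 and 111 and 117 TPM with sh7 (log2 difference -0.71, SE 0.0771, limma adjusted p = 0.109). D2hgdh, which clears an inhibitor of Tet enzymes, was at 10.4 and 9.12 TPM with the empty vector, 8.06 TPM with sh5 and 12.7 and 14.8 TPM with sh7. Oga, which removes the sugar that Ogt adds to proteins, was at 77.2 and 91.2 TPM with the empty vector, 74.0 TPM with sh5 and 102 and 107 TPM with sh7. These 3 genes, named for the smallest p of the list in this comparison, did not overlap between sh7 and EV, with Idh3b below and the others above. Among all tested genes 35.8% lay above and 14.3% below, and 24.2% and 23.5% under median-of-ratios scaling. In sh5 the smallest p were those of Ogt, a Tet-binding transferase (23.0 TPM in sh5, 29.5 and 27.2 TPM in EV), and Idh2 (79.7 TPM in sh5, 135 and 98.0 TPM in EV), and 0 of 12 were under 0.05.

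In the cycle that makes the methyl donor S-adenosylmethionine 15 of 17 genes were tested, with 1 counted higher and 3 lower for sh7 (10.3% and 4.15% of all tested genes) and 0 for sh5. Without EV replicate 1 it was 1 higher and 1 lower for sh7 and 1 lower for sh5, and under median-of-ratios scaling 1 higher and 4 lower for sh7. Mtr, methionine synthase, was at 15.8 and 18.1 TPM with the empty vector, 17.8 TPM with sh5 and 10.0 and 9.19 TPM with sh7 (log2 difference -0.76, SE 0.140, limma adjusted p = 0.219). Ahcy, which clears the product of every methyl transfer, was at 165 and 143 TPM with the empty vector, 147 TPM with sh5 and 121 and 124 TPM with sh7. The remaining gene counted lower was Mthfd1, a folate-cycle enzyme named after its value was seen (113 and 102 TPM with the empty vector, 88.1 and 89.7 TPM with sh7). In sh5, Mat2a, which makes the donor itself, was at 123 TPM (144 and 182 TPM in EV) and Shmt2 at 299 TPM (266 and 233 TPM in EV), both with an unadjusted p above 0.05.

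**Figure D4:**
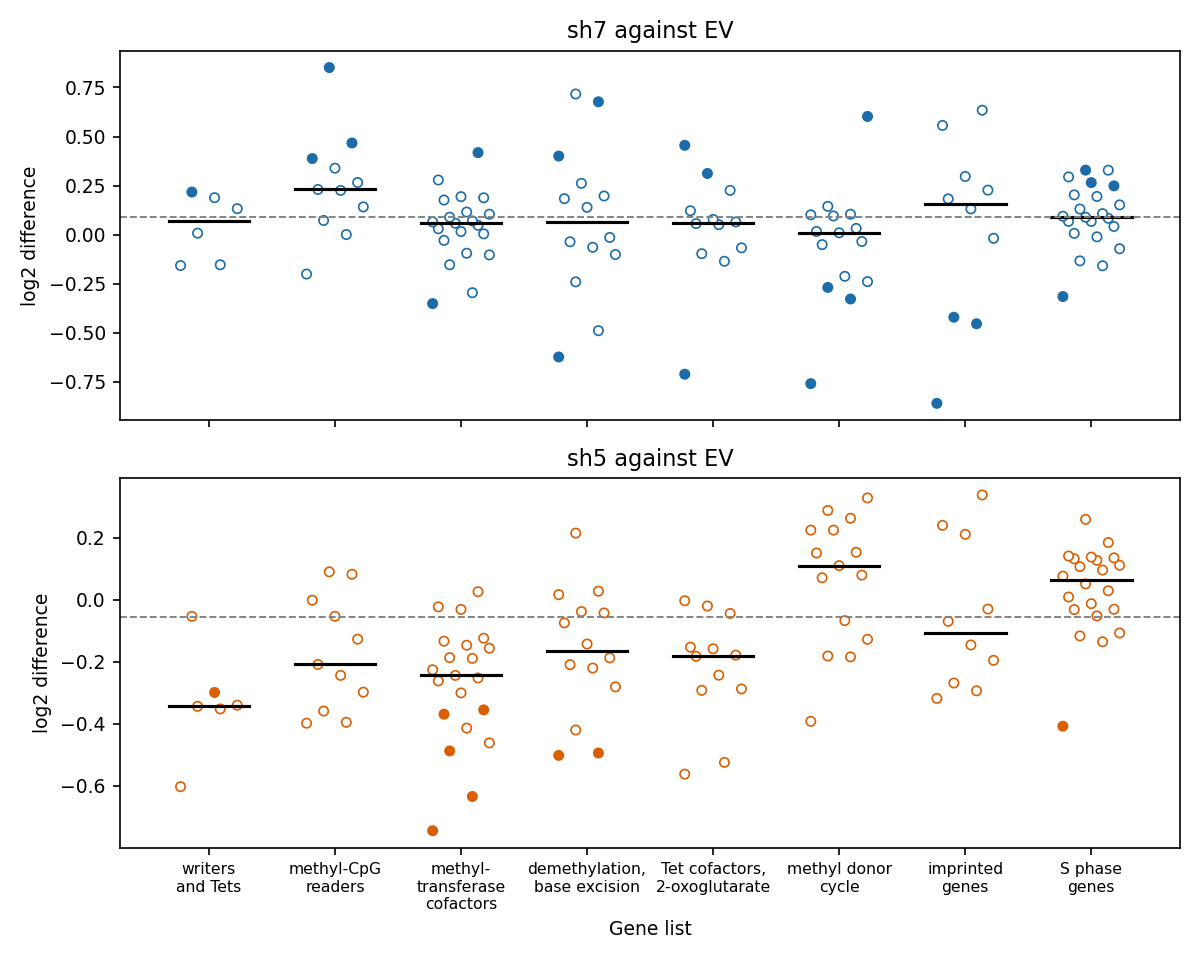
Log2 difference of TPM + 1 of each tested gene in 8 lists, for sh7 against EV above and sh5 against EV below. Filled points have an unadjusted limma p under 0.05, none passes the adjusted threshold, black bars are list medians and the dashed line is the median of all tested genes. The writers and Tets have medians of 0.070 for sh7 and -0.34 for sh5, and the methyltransferase cofactors 0.058 and -0.24. Without EV replicate 1 the medians of the writers and Tets were 0.25 and -0.11, and under median-of-ratios scaling -0.0090 and -0.29.

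Germline genes that methylation is known to keep silent, and imprinted genes, are given beside the enzymes. Whether their levels follow those of the enzymes was not tested. Of 19 germline genes with methylated promoters in somatic cells, 8 were listed at 0 in all 5 libraries and 18 averaged under 1 TPM. The sum over the 19 was 3.34 and 2.85 TPM with the empty vector, 4.51 TPM with sh5 and 3.20 and 3.17 TPM with sh7. The 1 tested gene, Tex19.1, was at 1.60 and 1.09 TPM with the empty vector, 2.73 TPM with sh5 and 2.36 and 1.00 TPM with sh7, with sh7 overlapping EV. Of 24 imprinted genes 10 were tested, with 3 counted lower and 0 higher for sh7 (4.15% and 10.3% of all tested genes). Without EV replicate 1 it was 2 lower and 1 higher. Gnas, the gene of a G protein subunit with several overlapping transcripts, was at 792 and 736 TPM with the empty vector, 634 TPM with sh5 and 404 and 437 TPM with sh7 (log2 difference -0.86, SE 0.0856, limma adjusted p = 0.108). Phlda2 was at 19.5 and 20.3 TPM with the empty vector, 23.7 TPM with sh5 and 14.4 and 14.1 TPM with sh7, and Grb10, a growth factor receptor adaptor, at 28.7 and 23.6 TPM with the empty vector, 22.6 TPM with sh5 and 19.7 and 18.8 TPM with sh7. Methylation itself was not measured in these libraries.

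S phase genes are given because Dnmt1 and Uhrf1 are expressed with them. Of 22, all tested, 3 were counted higher and 1 lower for sh7 against EV (10.3% and 4.15% of all tested genes), and the median log2 difference of 0.091 lay next to the 0.089 of all genes. Under median-of-ratios scaling it was 1 higher and 2 lower, under quantile normalization 2 and 2, and without EV replicate 1 it was 2 and 1. Mcm7, a helicase subunit, was at 373 and 338 TPM with the empty vector, 348 TPM with sh5 and 459 and 434 TPM with sh7. The histone mRNA binding factor Slbp was at 163 and 160 TPM with the empty vector, 162 TPM with sh5 and 196 and 193 TPM with sh7, and Rrm1, a ribonucleotide reductase subunit, at 161 and 162 TPM with the empty vector, 174 TPM with sh5 and 128 and 132 TPM with sh7. The remaining gene counted higher was the chromatin assembly factor gene Chaf1a, named after its value was seen (113 and 119 TPM with the empty vector, 145 and 131 TPM with sh7). In sh5 the list's median log2 difference was 0.064, where that of Dnmt1 was -0.30 and that of Uhrf1 -0.054. Pola1 was at 19.16 TPM in sh5 (27.0 and 24.6 TPM in EV) and Fen1 at 122 TPM (97.7 and 105 TPM in EV), so members of the list lay on either side of EV there. The summed level of the list was 2915 and 2937 TPM with the empty vector, 3028 TPM with sh5 and 3176 and 3075 TPM with sh7, and the part of cell cycle composition in the Dnmt1 values was not tested.

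Genes with the most similar profile over the 5 libraries were sought among 9541 named genes averaging 5 TPM or more, by the root-mean-square difference of centred log2 values. For Dnmt1 these were Ankrd49 (0.0181), the nuclear pore gene Seh1l (0.0207) and the kinase Limk2 (0.0222), against a spread of Dnmt1 itself of 0.19. Seh1l was at 76.8 and 75.0 TPM with the empty vector, 61.0 TPM with sh5 and 86.1 and 92.0 TPM with sh7, the same order of groups as Dnmt1. For Uhrf1 they were Mtpn (0.00692), Gltp (0.0111) and Tcea1 (0.0137), where the spread of Uhrf1 was only 0.0417. For Dnmt3a they were Stxbp3 (0.0370), Ttc8 (0.0420) and Ccdc181 (0.0474), and for Dnmt3b Rilpl1 (0.0451), Tnfsf12 (0.0466) and Cep78 (0.0601). For Tet1 they were the sterol isomerase gene Ebp (0.0536), Slc25a51 (0.0555) and Marcksl1 (0.0584). Adding 1 to TPM compresses a gene as low as Tet1, so these are near it on the log2(TPM + 1) scale and not in ratio: Tet1 in sh7 was at 0.178 of EV. Ebp was at 66.4 and 54.7 TPM with the empty vector, 62.6 TPM with sh5 and 38.5 and 37.1 TPM with sh7. For Tet2 they were Msln (0.0425), Trpv4 (0.0479) and Cela1 (0.0538), and for Tet3 Trak2 (0.0428), Cgnl1 (0.0439) and Amotl1 (0.0544). The 3 Tet genes shared no neighbour, and neither did Dnmt3a and Dnmt3b. With only 3 neighbours kept per gene out of 9541, this cannot tell whether the profiles of these genes were alike.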

How the data were processed

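Poly(A) RNA was profiled in 5 libraries, and the TPM deposited by the authors were used as they stand, each library summing to 1000000 TPM. The submitters' processing notes name kallisto 0.48.0. For the build, the annotation and the summing of transcripts the sources used here give nothing. TPM keep no depth, so reads per library, counting error and detection floors are unknown.

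The 12728 genes averaging 1 TPM or more were tested in R 4.3.3 with limma 3.58.1 (mean-variance trend, two-sided) on log2(TPM + 1) with all 3 groups fitted together. This left 2 residual degrees of freedom, and sh5, a single library, is taken to vary as the replicated groups do. Benjamini-Hochberg adjustment ran over all tested genes at 0.05. Log2 differences are on that scale, which understates changes of low genes. A gene is counted, in the text, at an unadjusted p under 0.05. The procedure was also run on simulated data with independent noise and no library set apart as EV replicate 1 was. That run cannot tell how such a library moves the calls.

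The members and lists were chosen with earlier results of these data known. Named besides the members, Drosha and Dgcr8 were, from each list, the 3 tested genes with the smallest p for sh7 and the 2 for sh5 against EV, and for each member its 3 nearest profiles. Of the genes this rule names, 2 are not reported here. Promoter and microRNA sequences are RefSeq's (GRCm38.p6), matched by symbol for 7 of 7 members. EV and sh7 libraries of the same number did not deviate together over genes, which cannot exclude a shared batch. Numbers were not treated as pairs in the main fit. Alternatives were other pseudocounts, filters and scalings, no trend, a replicate block and each library left out. Those for list counts and overlaps were chosen after seeing the data.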

Additional observations from a re-analysis of the deposited data

Results flagged for a closer look

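Dnmt1 lay on opposite sides of the controls for the 2 constructs: both sh7 libraries (105 and 109 TPM) were above and the sh5 library (74.5 TPM) was below both EV libraries (91.8 and 91.8 TPM). The log2 difference between sh7 and sh5 was 0.52, and the test of that difference did not pass (limma adjusted p = 0.128, and 0.0898 to 0.578 over its alternatives). Genes of this pattern made up 14.0% of all tested genes.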

How the results depend on the processing

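In the comparison of sh7 with EV, limma called 2 genes in all, and 1 with a pseudocount of 0.1, 1 with 0.5, 0 without a filter (3059 at an unadjusted p under 0.05), 4 at a mean of at least 5 TPM, 1 under median-of-ratios scaling, 1 under quantile normalization, 19 without the trend, 0 with the replicate block (1594 at an unadjusted p under 0.05) and 0 to 281 when a library was left out, the 281 without EV replicate 2. For sh5 against EV it called 0 genes (1216 at an unadjusted p under 0.05), 180 without a filter and 0 to 59 with a library left out, the 59 again without EV replicate 2. For sh7 against sh5 it called 2 genes, 251 without a filter, 0 without the trend, 0 with the replicate block and 0 to 4 with a library left out. The cause of these moves was not tested. The block was run because the labels number the replicates. The deviations of same-numbered EV and sh7 libraries correlated at -0.0158 over genes. With 2 libraries in each of these groups, that single value cannot tell whether same-numbered libraries share a batch or preparation.

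None of the 7 members passed the adjusted threshold under any alternative. Of 256 recomputed member differences 17 changed sign. Under median-of-ratios scaling these were Uhrf1 in sh7 against EV (-0.079), sh5 against EV (0.020) and sh7 against sh5 (-0.10), and Tet1 in sh5 against EV (0.015). Under quantile normalization they were Uhrf1 (-0.039), Dnmt3a (-0.050) and Tet2 (-0.017) in sh7 against EV and Dnmt3b in sh7 against sh5 (-0.14). With a library left out, the difference for sh7 against EV ran from -0.044 to 0.059 for Uhrf1, -0.097 to 0.36 for Dnmt3a, -0.59 to 0.28 for Dnmt3b, -0.072 to 0.45 for Tet2 and -0.36 to 0.057 for Tet3. For sh5 against EV it ran from -0.57 to -0.11 for Dnmt3a, -0.61 to -0.092 for Tet2, -0.77 to 0.093 for Dnmt3b and -0.23 to 0.19 for Tet1. Dnmt1 kept its sign in all 3 comparisons under every alternative, from 0.13 to 0.24 for sh7, -0.30 to -0.23 for sh5 and 0.36 to 0.54 between the constructs, but its unadjusted p for sh7 against EV was 0.0802 and 0.0786 without EV replicate 1 or 2, and 0.0865 and 0.135 when sh7 replicate 1 or 2 was left out. Its unadjusted p for sh5 against EV was 0.0649 under median-of-ratios scaling, 0.0706 without the trend, 0.0840 with the replicate block, and 0.0523 and 0.0530 when sh7 replicate 1 or 2 was left out. Tet1 was below EV in sh7 under each alternative that gave it a value (-0.46 to -1.86). Quantile normalization ran over tested genes and gave none. Changes in the list counts under other scalings and without EV replicate 1 are given with the lists, and not for every setting.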
